A study of Mus musculus with 12 samples.

Results

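Chemokine receptors are the cell-surface proteins through which T cells read gradients of small secreted proteins, the chemokines, and move along them. The 9 receptor genes described here are Ccr2, Ccr4, Ccr6, Ccr7, Ccr8, Ccr10, Cxcr3, Cxcr4 and Cxcr6. They were taken by gene symbol from the 55011 symbols of the count table. All 9 were found and all 9 passed the filter on low counts. They were measured by RNA-seq in regulatory T cells (Treg), the CD4 T cells that restrain other immune cells and whose defining transcription factor is Foxp3.

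The cells came from lungs and spleens of male C57BL/6 mice aged 21 days and were sorted as live cells positive for TCRβ, CD4, GFP and CD25, with 1000 cells in each library. There were 4 groups of 3 libraries. Lung ∆Foxp3 Treg carried the allele labelled ∆Foxp3.ires.GFP, and lung WT Treg carried Foxp3.ires.GFP, an intact Foxp3 gene that also drives GFP. Spleen ∆Foxp3 Treg were labelled ∆Foxp3.EGFP.iCre X R26.YFP, and spleen WT Treg again carried Foxp3.ires.GFP. The protocol text names ∆Foxp3.ires.GFP for both organs, so for ∆Foxp3 cells the organ and the labelled allele cannot be told apart. By the labels, the spleen ∆Foxp3 and WT alleles also differ in more than the deletion. The deletion and these other differences cannot be told apart in spleen. Lungs were perfused and digested with collagenase and DNase, and their CD4 T cells were enriched before the sort, whereas spleens were dissociated mechanically. The labels do not say which libraries came from different mice, so a p-value here reflects how far libraries of a group lie apart, and that distance may be technical. The ∆Foxp3 cells also lived in ∆Foxp3 mice, so the allele in the cell and its surroundings cannot be told apart.

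A chemokine receptor is a membrane protein coupled to an inhibitory G protein, and its ligand sets off integrin activation and directed movement. Ccr7 binds CCL19 and CCL21 and brings naive and resting T cells into lymph nodes and the T cell zones of the spleen. Receptors such as Cxcr6 (for CXCL16), Ccr8 (for CCL1), Ccr4 (for CCL17 and CCL22), Ccr6 (for CCL20), Ccr10 (for CCL27 and CCL28), Ccr2 (for CCL2 and related chemokines) and Cxcr3 (for CXCL9, CXCL10 and CXCL11) guide activated and tissue T cells. Cxcr4 binds CXCL12 and is used by many cell types. Treg at barrier surfaces are known to use several of the tissue receptors.

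Libraries held 3958892 to 9025150 counts, so that 3 counts corresponded to 0.332 to 0.758 CPM (counts scaled to a common library size, here with trimmed-mean, or TMM, factors). Foxp3 itself, the deleted gene, was at 469, 385 and 189 CPM in lung ∆Foxp3 against 1418, 1361 and 1328 CPM in lung WT, and at 159, 114 and 227 CPM in spleen ∆Foxp3 against 1026, 991 and 1096 CPM in spleen WT. It was lower in every ∆Foxp3 library than in every WT library, and the labels do not say which bases the ∆Foxp3 allele lacks. Cd4 was at 909 to 917 CPM in lung ∆Foxp3 and 661 to 730 CPM in lung WT. In spleen it was at 801 to 878 CPM in ∆Foxp3 and 604 to 718 CPM in WT. The summed level of 8 T cell marker genes went the other way. It was 5301 to 6023 CPM in lung ∆Foxp3 and 6253 to 6444 CPM in lung WT. Its spleen range was 5451 to 6200 CPM in ∆Foxp3 and 6456 to 7912 CPM in WT. Il2ra, which encodes CD25, was at 360 to 575 CPM in lung ∆Foxp3, 599 to 711 CPM in lung WT, 237 to 504 CPM in spleen ∆Foxp3 and 719 to 897 CPM in spleen WT. An earlier account of these data named spleen WT 1, lung WT 1 and lung ∆Foxp3 3 as standing apart, and a member's result is also given without them where its call changed. Spleen WT 1 lay at 62.6 on the second principal component against 9.62 and 15.01 for the other spleen WT libraries, while lung WT 1 and lung ∆Foxp3 3 had the most genes detected in their groups.

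The promoters of Cxcr6, Ccr8 and Ccr4 are shown because Cxcr6 and Ccr8 are the members that rose, and Ccr4 is the member with a RefSeq promoter that fell in both organs under all 21 alternatives. RefSeq start-site windows (GRCm38.p6, the mm10 build, 250 bases before to 50 after the start) matched 7 of the 9 genes, with 8 promoters in all. Each is given 5′ to 3′ on its gene's strand, in lower case. Capitals mark every match on either strand to 5 short motifs, those of forkhead, GATA, AP-1, T-box and KLF factors, whose letters are spelled out after the sequences. No matches overlap in these 3 windows.
Cxcr6, chr9:123806227-123806526, plus strand: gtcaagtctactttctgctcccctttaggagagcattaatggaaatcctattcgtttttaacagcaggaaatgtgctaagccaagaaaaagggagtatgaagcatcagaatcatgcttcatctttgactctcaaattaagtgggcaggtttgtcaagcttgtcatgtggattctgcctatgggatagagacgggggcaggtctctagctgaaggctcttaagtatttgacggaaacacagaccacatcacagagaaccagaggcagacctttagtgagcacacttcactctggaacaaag
Ccr8, chr9:120091883-120092182, plus strand: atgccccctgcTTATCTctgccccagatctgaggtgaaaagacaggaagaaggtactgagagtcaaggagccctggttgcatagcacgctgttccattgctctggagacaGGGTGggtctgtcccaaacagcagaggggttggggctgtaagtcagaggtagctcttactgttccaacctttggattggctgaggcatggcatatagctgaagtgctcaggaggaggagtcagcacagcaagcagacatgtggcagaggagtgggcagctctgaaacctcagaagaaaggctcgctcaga
Ccr4, chr9:114496495-114496794, minus strand: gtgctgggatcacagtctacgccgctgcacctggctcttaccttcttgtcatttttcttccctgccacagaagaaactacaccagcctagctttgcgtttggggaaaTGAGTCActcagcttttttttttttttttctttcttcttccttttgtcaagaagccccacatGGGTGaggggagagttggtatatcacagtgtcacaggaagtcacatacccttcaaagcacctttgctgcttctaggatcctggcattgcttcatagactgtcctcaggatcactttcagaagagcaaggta

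The Cxcr6 window holds none of the 5 motifs. The Ccr8 window holds the GATA letters 239 bases and the KLF letters 140 bases before the start. The Ccr4 window holds the AP-1 letters 143 bases and the KLF letters 81 bases before it. The motifs were counted on both strands in all 32851 windows of the same length. The forkhead motif was searched as TAAACA and stood in 13.4% of those windows. The GATA motif was searched as AGATAA and stood in 11.2% of them. For AP-1 the letters were TGANTCA, found in 7.81% of the windows. For T-box factors they were TCACACC, found in 3.98% of the windows. The short KLF motif, CACCC, occurred in 57.5% of the windows. Of the other members, Ccr2 and 1 of the Ccr6 windows held the GATA letters, Cxcr3 held the forkhead letters and Cxcr4 the KLF letters. A match is a description of letters and not a measured binding site.

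In ∆Foxp3 Treg, Cxcr6 and Ccr8 rose and Ccr4, Ccr6, Ccr7 and Ccr10 fell, in the lungs and in the spleen alike. In spleen the labelled alleles of ∆Foxp3 and WT differ in more than the deletion, and the parts of each cannot be told apart. The remaining genes, Ccr2, Cxcr3 and Cxcr4, did not pass the test in either organ. Calls were made at an adjusted p under 0.05 (edgeR quasi-likelihood test, two-sided, over 13295 genes). In the lungs, 2 members rose and 4 fell, beside 20.2% of all genes called, 9.74% higher and 10.5% lower. In the spleen the same 2 rose and the same 4 fell, beside 26.6% of all genes called, 14.1% higher and 12.5% lower. Across all genes, 6.84% were called higher in both organs and 7.18% lower in both. The libraries of ∆Foxp3 and WT did not overlap for 45.3% of all genes in lung and 38.2% in spleen. These shares stand beside each receptor described below as not overlapping between genotypes. Since these are RNA levels from sorted pools, fewer cells expressing a receptor and less RNA per cell cannot be told apart.

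**Figure D1:**
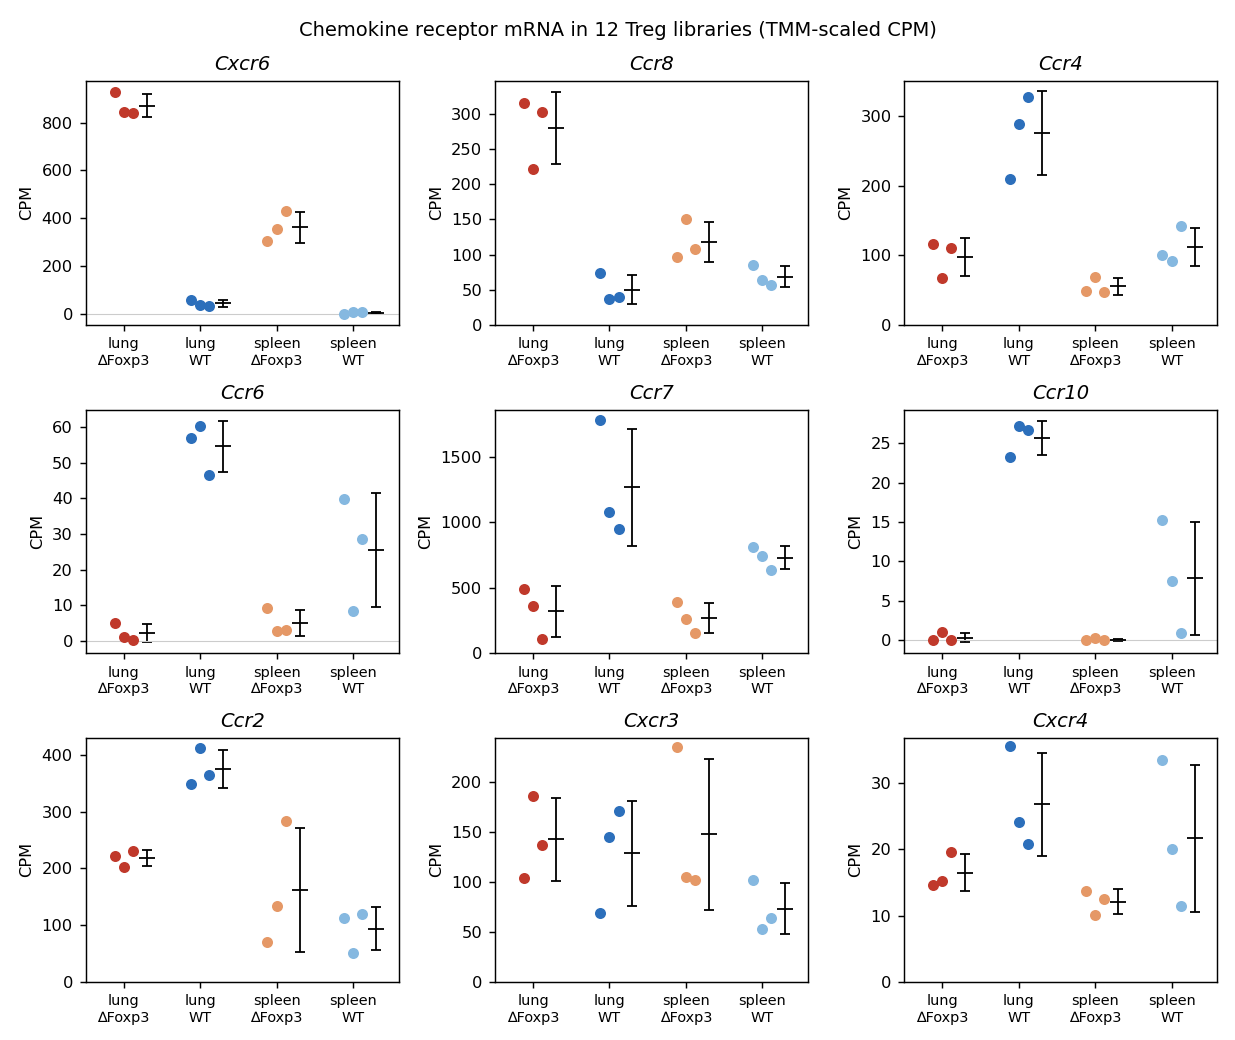
Level of each receptor gene in TMM-scaled CPM (y axis, linear, its own scale in each panel) in lung ∆Foxp3, lung WT, spleen ∆Foxp3 and spleen WT libraries, with coloured points for libraries and black bars for the mean ± SD (n = 3). Cxcr6 and Ccr8 are high in the lung ∆Foxp3 libraries, while Ccr4, Ccr6, Ccr7 and Ccr10 are high in the lung WT libraries.

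Cxcr6 (chromosome 9, 123806475 to 123811760, plus strand) encodes the receptor for CXCL16, and it marks activated and tissue-resident T cells. It was at 928, 846 and 839 CPM in lung ∆Foxp3 libraries, against 57.7, 37.1 and 33.8 CPM in lung WT. The lung groups were far apart, with every ∆Foxp3 library above every WT one. This was a 20.3-fold difference, or 4.35 ± 0.60 on the log2 scale (± SE, as throughout; adjusted p = 0.000643). In the spleen it was at 303, 353 and 430 CPM in ∆Foxp3 libraries, against 0, 6.61 and 6.94 CPM in WT libraries. Here too the groups did not overlap, and the only library at 0 was spleen WT 1. The difference was 6.42 ± 0.70 on the log2 scale (adjusted p = 6.9e-05), and Cxcr6 ranked 54th of 13295 genes from the highest log2 fold change in spleen and 95th in the lungs. Cxcr6 passed in both organs under all 21 alternatives, and its spleen log2 fold change was 5.77 without spleen WT 1.

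Cxcr6 lies inside the span of Fyco1, an autophagy adaptor gene on the opposite strand, with no exon bases shared. Fyco1 was at 50.5, 47.2 and 48.5 CPM in lung ∆Foxp3 and at 54.9, 45.3 and 59.6 CPM in lung WT. In spleen it was at 43.3, 37.4 and 83.9 CPM in ∆Foxp3 and at 44.8, 59.5 and 62.6 CPM in WT. Its log2 fold changes, -0.13 ± 0.26 in the lungs (adjusted p = 0.771) and -0.01 ± 0.26 in the spleen (adjusted p = 0.984), did not pass.

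Ccr8 (chromosome 9, 120092114 to 120094906, plus strand) encodes the receptor for CCL1 and is a gene of tissue Treg and of type 2 helper T cells. Its levels were 316, 221 and 303 CPM in lung ∆Foxp3, against 73.9, 36.0 and 39.6 CPM in lung WT. In spleen they were 96.8, 151 and 108 CPM in ∆Foxp3, against 85.5, 64.0 and 56.5 CPM in WT. The ranges did not overlap in either organ, but in spleen the lowest ∆Foxp3 library stood close to the highest WT library. Ccr8 rose by 2.49 ± 0.28 on the log2 scale in the lungs (adjusted p = 4.7e-05) and 0.78 ± 0.26 in the spleen (adjusted p = 0.0402). The spleen call was lost without any of 4 libraries, at an adjusted p of 0.112 without spleen WT 2, 0.133 without spleen WT 3, 0.164 without spleen ∆Foxp3 2 and 0.0517 without spleen ∆Foxp3 3. The lung call held in all 21 alternatives.

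Ccr8 was the only member whose ∆Foxp3 effect differed between organs by the interaction test. The lung effect exceeded the spleen effect by 1.71 ± 0.38 on the log2 scale (adjusted p = 0.0486), where 0.925% of all genes passed and 0.143% passed in this direction. Over the alternatives that adjusted p ran up to 0.157, and 7 of 20 kept the call. Of the 12 fits that each left out 1 library, those without spleen ∆Foxp3 2 and without lung WT 1 kept it. It was lost without spleen WT 1, 2 or 3 (0.0924, 0.0921 and 0.0536), spleen ∆Foxp3 1 or 3 (0.144 and 0.0867), lung WT 2 or 3 (0.130 and 0.157) and lung ∆Foxp3 1, 2 or 3 (0.149, 0.0546 and 0.123). The other 8 members did not pass the interaction test, with adjusted p between 0.375 (Ccr2) and 0.978 (Cxcr4), although Cxcr6 did without spleen WT 1 (-1.39, adjusted p = 0.0433). Because the ∆Foxp3 alleles labelled in lung and spleen differ, the organ and the allele cannot be told apart in this difference.

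**Figure D2:**
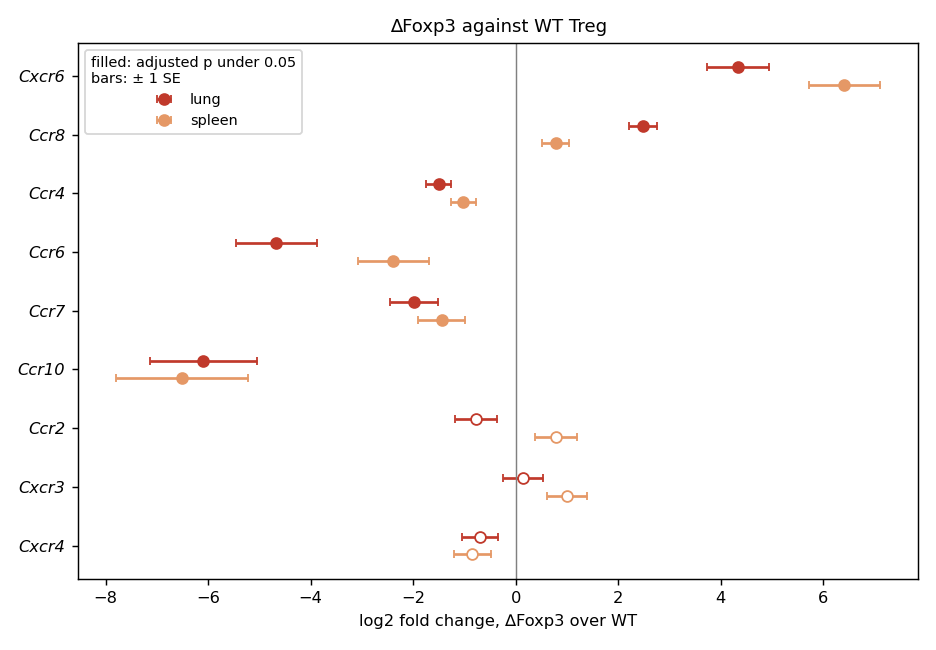
Log2 fold change of ∆Foxp3 over WT (x axis) for each receptor gene (y axis), in lung (upper point of each pair) and spleen, with bars for ± 1 SE and filled points for adjusted p under 0.05. Cxcr6 and Ccr8 lie right of 0 and Ccr4, Ccr6, Ccr7 and Ccr10 lie left of 0 in both organs, and for Ccr2 the lung and spleen points lie on opposite sides.

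Ccr4 (chromosome 9, 114490316 to 114504916, minus strand) encodes the receptor for CCL17 and CCL22, through which Treg are drawn to skin, lung and antigen-presenting cells. It was at 116, 66.8 and 110 CPM in lung ∆Foxp3, against 209, 289 and 328 CPM in lung WT. In spleen it was at 48.5, 69.0 and 47.6 CPM in ∆Foxp3, against 101, 91.1 and 142 CPM in WT. No ∆Foxp3 library reached a WT library of its organ. Ccr4 fell by 1.50 ± 0.25 on the log2 scale in the lungs (adjusted p = 0.000812) and by 1.02 ± 0.25 in the spleen (adjusted p = 0.00694), and it passed in both organs under all 21 alternatives.

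Ccr6 (chromosome 17, 8236043 to 8257141, plus strand) encodes the receptor for CCL20, a chemokine of mucosal surfaces. It was at 5.08, 1.19 and 0.223 CPM in lung ∆Foxp3, the last being a single count, against 56.9, 60.4 and 46.4 CPM in lung WT. In spleen it was at 9.18, 2.64 and 3.01 CPM in ∆Foxp3, against 39.8, 8.22 and 28.5 CPM in WT. The lung groups were well apart, whereas in spleen the lowest WT library lay below the highest ∆Foxp3 library. The gene fell by 4.67 ± 0.79 on the log2 scale in the lungs (adjusted p = 0.0014) and by 2.39 ± 0.70 in the spleen (adjusted p = 0.0223). The log2 fold change was -6.14 in the lungs without lung ∆Foxp3 1 and -3.14 in the spleen without spleen ∆Foxp3 1. The spleen call did not hold without spleen WT 1 (0.0815), spleen WT 3 (0.0585), spleen ∆Foxp3 2 (0.092) or spleen ∆Foxp3 3 (0.081), nor without the 3 libraries that stand apart (0.0645) or without a low-count filter (0.064).

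Ccr7 (chromosome 11, 99144196 to 99155077, minus strand), the lymph node homing receptor, was at 493, 358 and 112 CPM in lung ∆Foxp3, against 1780, 1081 and 948 CPM in lung WT. In spleen it was at 389, 263 and 155 CPM in ∆Foxp3, against 810, 745 and 635 CPM in WT. Every ∆Foxp3 library lay below every WT library, and lung ∆Foxp3 3 and spleen ∆Foxp3 3 were the lowest of all. Ccr7 fell by 1.99 ± 0.46 on the log2 scale in the lungs (adjusted p = 0.0108) and by 1.44 ± 0.46 in the spleen (adjusted p = 0.0353). The spleen call was lost without any of spleen WT 1, 2 or 3 (0.12, 0.0824 and 0.0694), spleen ∆Foxp3 2 or 3 (0.134 and 0.138), lung WT 2 (0.0549) or lung ∆Foxp3 2 (0.0558), and the lung call was lost without the 3 libraries that stand apart (-1.23, adjusted p = 0.0508). Without a low-count filter neither passed (0.0926 in the lungs and 0.216 in the spleen), and the lung difference did not pass when the fit held lung libraries alone (0.0684).

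Ccr10 (chromosome 11, 101172997 to 101175443, minus strand) encodes the receptor for CCL27 and CCL28, chemokines of skin and mucosa. It had 0, 5 and 0 counts in lung ∆Foxp3 libraries against 108, 105 and 152 counts in lung WT. In spleen it had 0, 1 and 0 counts in ∆Foxp3 libraries against 137, 42 and 6 counts in WT. It was thus hardly detected in ∆Foxp3 cells, and among spleen WT libraries its level ran from 0.926 to 15.3 CPM. The gene fell by 6.09 ± 1.04 on the log2 scale in the lungs (adjusted p = 0.00125), a value that rests on the 5 counts of lung ∆Foxp3 2. Without that library all lung ∆Foxp3 counts were 0 and the fitted value was -10.12, which is no bound. In the spleen it passed as well (adjusted p = 0.0021), and the pooled counts were 141 times higher in WT (95% counting interval 24.97 to 5592, for counting error only). Both calls held in every alternative that gave a value. It lies within the span of Cntnap1 on the opposite strand, with no exon bases shared.

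Ccr2 (chromosome 9, 124101950 to 124113557, plus strand), the receptor for CCL2, was at 222, 202 and 230 CPM in lung ∆Foxp3, against 348, 412 and 364 CPM in lung WT. Spleen levels were 69.9, 134 and 282 CPM in ∆Foxp3, against 112, 50.02 and 119 CPM in WT. The lung groups did not overlap, while the spleen groups did. The log2 fold change was -0.78 ± 0.41 in the lungs (adjusted p = 0.204; approximate 95% interval -1.58 to 0.02) and 0.79 ± 0.41 in the spleen (adjusted p = 0.183; -0.02 to 1.60). The lung difference passed when the fit held lung libraries alone (adjusted p = 0.000469), and the spleen difference passed without spleen ∆Foxp3 1 (1.18, adjusted p = 0.0235). Of the 38-base stretches in Ccr2 transcripts, 2.62% also occur in other genes, so reads from those stretches are uncertain. The corresponding share was 0.465% for Ccr4, 0.122% for Ccr6 and 0 for the other members.

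Cxcr3 (chromosome X, 101731535 to 101734269, minus strand), the receptor of type 1 T cells for interferon-induced chemokines, was at 104, 186 and 137 CPM in lung ∆Foxp3, against 69.3, 145 and 171 CPM in lung WT. In spleen it was at 235, 105 and 102 CPM in ∆Foxp3, against 102, 53.2 and 64.3 CPM in WT. The lung groups overlapped, and in spleen the groups nearly touched without overlapping. The log2 fold change was 0.15 ± 0.39 in the lungs (adjusted p = 0.832; approximate 95% interval -0.62 to 0.92) and 1.01 ± 0.40 in the spleen (adjusted p = 0.0801; 0.23 to 1.78). The spleen difference passed with DESeq2 (adjusted p = 0.0191), without lung WT 1 (0.0457) and without the 3 libraries that stand apart (0.0299).

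Cxcr4 (chromosome 1, 128588199 to 128592293, minus strand), the receptor for CXCL12, was at 14.5, 15.3 and 19.7 CPM in lung ∆Foxp3, against 35.5, 24.1 and 20.7 CPM in lung WT. Spleen levels were 13.8, 10.1 and 12.5 CPM in ∆Foxp3, against 33.5, 20.01 and 11.4 CPM in WT. The lung groups were adjacent without overlapping, and the spleen groups overlapped. The log2 fold change was -0.70 ± 0.36 in the lungs (adjusted p = 0.184; approximate 95% interval -1.40 to -0.002) and -0.84 ± 0.36 in the spleen (adjusted p = 0.0968; -1.54 to -0.14). These intervals use a normal multiple of the SE and are too narrow. The lung interval leaves out 0 although the unadjusted p of the edgeR test was 0.0684. The spleen difference passed without spleen WT 3 (-1.15, adjusted p = 0.0226).

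Set against each other per kilobase of exon, the receptors changed places between genotypes. Cxcr6 held 42.2% to 47.8% of the summed CPM per kilobase of the 9 genes in lung ∆Foxp3 libraries and 2.09% to 2.47% in lung WT. Ccr7 held 6.21% to 21.9% in lung ∆Foxp3 and 57.3% to 74.4% in lung WT. In spleen, Cxcr6 held 25.8% to 43.0% in ∆Foxp3 and 0% to 0.730% in WT, and Ccr7 held 15.1% to 32.3% in ∆Foxp3 and 64.5% to 72.3% in WT. Cxcr6 had the highest mean level per kilobase in both ∆Foxp3 groups, with 451 ± 25.5 CPM per kilobase in lung and 188 ± 33.2 in spleen (SD, n = 3). In lung its range stood clear of the next gene, Ccr8, whereas in spleen it overlapped that of Ccr7. Ccr7 had the highest in both WT groups, with 642 ± 226 CPM per kilobase in lung and 369 ± 44.7 in spleen, and in both its range stood clear of the next gene.

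**Figure D3:**
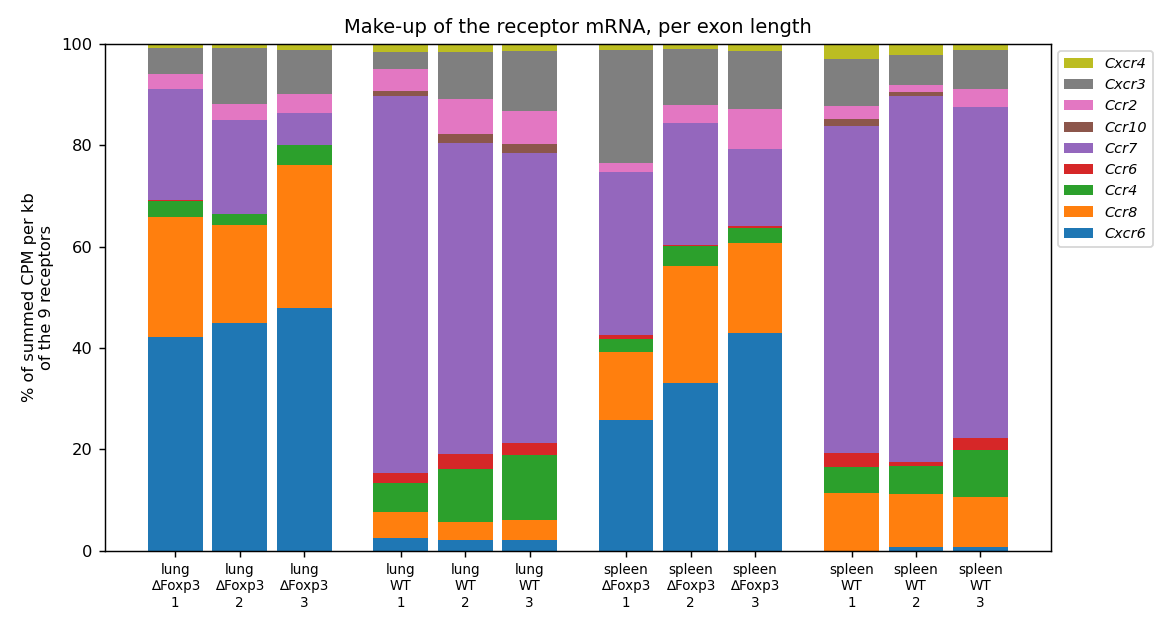
Share of each receptor gene in the summed CPM per kilobase of exon of the 9 genes (y axis, percent) in each of the 12 libraries (x axis). The Cxcr6 and Ccr8 blocks fill most of the bars of the lung ∆Foxp3 libraries, and the Ccr7 block fills most of the bars of the WT libraries of both organs.

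Between organs, WT Treg of the lungs had more Cxcr6, Ccr4 and Ccr2 than WT Treg of the spleen. The 3 members passed, all higher in lung, beside 4.13% of all genes called, 3.1% higher and 1.03% lower. Over all genes that split was 412 higher and 137 lower, and it was 371 and 260 when library totals were used without TMM factors. Cxcr6 was 3.34 ± 0.66 higher on the log2 scale in lung (adjusted p = 0.0159), Ccr4 was 1.31 ± 0.24 higher (adjusted p = 0.00701) and Ccr2 was 1.99 ± 0.42 higher (adjusted p = 0.0196). The Ccr4 call held in all 21 alternatives. The Cxcr6 difference was 2.68 without spleen WT 1, the library at 0, 2.40 without the 3 libraries that stand apart and 5.45 with limma voom. Its call was lost with only the WT libraries in the fit (0.102) and without a low-count filter (0.0927). The Ccr2 call was lost without any of spleen WT 1 or 2 (0.0643 and 0.0623) or lung WT 2 or 3 (0.0564 for each), when no low-count filter was used (0.139), or with the 3 libraries that stand apart left out (0.115).

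The other members did not pass between WT organs. Their log2 differences, lung over spleen, were 1.69 ± 0.75 for Ccr10 (adjusted p = 0.235), 1.09 ± 0.63 for Ccr6 (0.381), 0.81 ± 0.40 for Cxcr3 (0.293), 0.80 ± 0.45 for Ccr7 (0.372), 0.30 ± 0.35 for Cxcr4 (0.694) and -0.46 ± 0.27 for Ccr8 (0.378). Ccr6, Ccr7 and Ccr10 were nonetheless higher in each lung WT library than in each spleen WT library, a separation that 25.6% of all genes showed between these groups.

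In ∆Foxp3 Treg, only Ccr8 passed between organs, at 1.24 ± 0.26 on the log2 scale higher in lung (adjusted p = 0.0468), beside 0.722% of all genes called and 0.549% called higher. It passed in 10 of 21 alternatives and was lost without spleen ∆Foxp3 1 or 3 (0.221 and 0.154), lung ∆Foxp3 1, 2 or 3 (0.153, 0.0592 and 0.181), spleen WT 2 or 3 (0.0682 and 0.0608) and lung WT 3 (0.0501). Cxcr6 was 1.27 ± 0.53 higher in lung ∆Foxp3 than in spleen ∆Foxp3 (adjusted p = 0.489) and its groups did not overlap, which was so for 15.5% of all genes. It passed with only the ∆Foxp3 libraries in the fit (0.00803), without spleen WT 1 (0.00267) and without the 3 libraries that stand apart (0.00203). The other members had log2 differences between -1.19 (Ccr6) and 0.83 (Ccr4), leaving aside Ccr10 with 5 counts in lung and 1 in spleen.

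**Figure D4:**
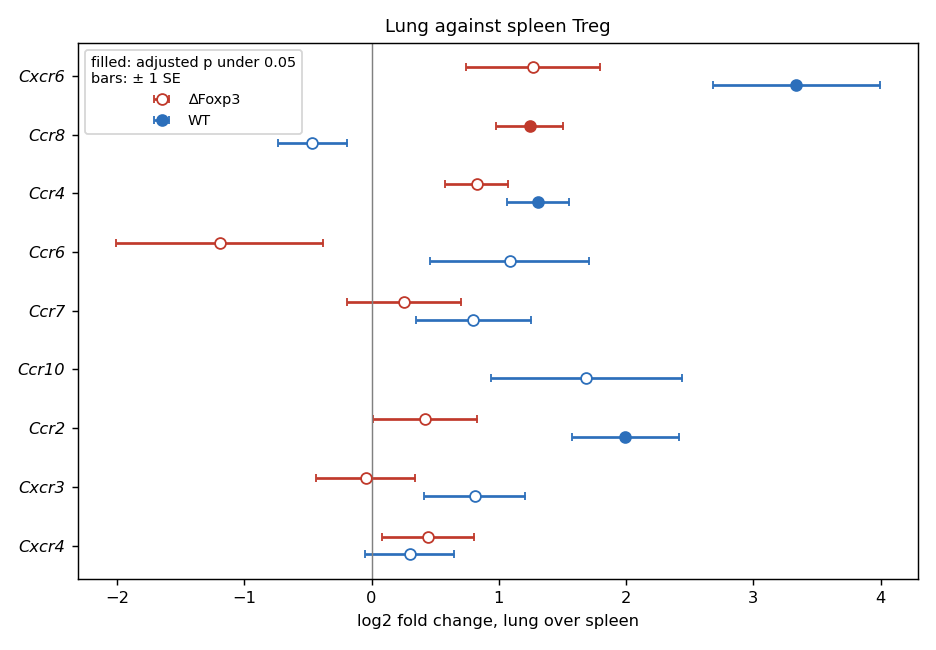
Log2 fold change of lung over spleen (x axis) for each receptor gene (y axis), in ∆Foxp3 Treg (upper point of each pair) and WT Treg, with bars for ± 1 SE and filled points for adjusted p under 0.05. Ccr10 in ∆Foxp3 Treg is not drawn because it had 5 counts in lung and 1 in spleen, and Ccr8 lies right of 0 in ∆Foxp3 Treg and left of 0 in WT Treg.

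Digestion differed between the organs too, and some stress genes moved with the organ. Of 16 genes known to respond to tissue dissociation and heat, 5 were higher in lung than spleen in ∆Foxp3 cells and 0 lower, and 6 were higher and 1 lower in WT cells. The other 11 in ∆Foxp3 cells and 9 in WT cells were not called. Over all genes 0.722% were called between ∆Foxp3 organs and 4.13% between WT organs. Hspa1a, a heat shock protein gene, was at 228, 250 and 676 CPM in lung ∆Foxp3 and at 0.219, 0 and 0 CPM in spleen ∆Foxp3. It was at 127, 102 and 163 CPM in lung WT and at 2.56, 0 and 0 CPM in spleen WT. Egr1, of the same list, averaged 18.4 CPM in lung WT and 84.2 CPM in spleen WT. In ∆Foxp3 cells Egr1 averaged 51.5 CPM in lung and 54.4 CPM in spleen. The part of the 16 genes in the organ differences of the receptors was not tested. Between genotypes the counts called in this list lay below the 20.2% of all genes called in lung and 26.6% in spleen. In lung ∆Foxp3 2 of the 16 rose, namely Ier3 (5.00 ± 0.77, adjusted p = 0.000706) and Egr1 (1.49 ± 0.24, adjusted p = 0.000634). In spleen ∆Foxp3 Ier3 rose (6.57 ± 0.83, adjusted p = 8.8e-05; 5.89 without spleen WT 1 and 7.16 without spleen WT 3) while Zfp36 and Egr1 fell (adjusted p = 0.0143 and 0.0486). The Zfp36 call was lost without spleen ∆Foxp3 2 or 3 (0.0712 and 0.0593), spleen WT 1 (0.0708) or a low-count filter (0.0963). The Egr1 call was lost in 10 of the 12 fits that each left out 1 library and without the 3 libraries that stand apart (0.0807). Egr1 was also lost with RLE factors (0.0609), without a low-count filter (0.0618), with the replicate block (0.0516) and with spleen libraries alone (0.0925).

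Markers of other cell types were also read in these libraries. The summed level of 8 B and plasma cell genes was 133 to 262 CPM in lung ∆Foxp3 against 1938 to 1978 CPM in lung WT, and 76.6 to 161 CPM in spleen ∆Foxp3 against 1124 to 1288 CPM in spleen WT. Of the list, 4 genes passed the filter on low counts, and 2 of them, the immunoglobulin genes Ighm and Ighd, fell in ∆Foxp3 cells of both organs. Over all genes 7.18% were called lower in both. Ighm averaged 163 CPM in lung ∆Foxp3 against 1916 CPM in lung WT, and 105 CPM in spleen ∆Foxp3 against 1190 CPM in spleen WT (adjusted p = 2.8e-05 and 1.5e-05). Ighd had 8 counts over the lung ∆Foxp3 libraries against 164 over lung WT, and 6 over spleen ∆Foxp3 against 235 over spleen WT (adjusted p = 0.0024 and 0.00115). Cd79a, a chain of the B cell receptor, did not pass, with 32 counts in lung ∆Foxp3 against 74 in lung WT and 27 in spleen ∆Foxp3 against 99 in spleen WT (adjusted p = 0.118 and 0.0545). Its partner Cd79b averaged 23.8 CPM in lung ∆Foxp3 and 26.6 CPM in lung WT, and 24.4 CPM in spleen ∆Foxp3 and 24.5 CPM in spleen WT. The defining B cell gene Ms4a1 had 3 counts over lung ∆Foxp3 and 15 over lung WT, and 1 over spleen ∆Foxp3 and 0 over spleen WT, and the plasma cell gene Mzb1 was at 0 in all groups. Between genotypes the list's sum, with Ighm its most abundant gene, moved with Ccr4, Ccr6, Ccr7 and Ccr10. The part of this list in their levels was not tested. Monocyte and macrophage genes (8) summed to 12.7 to 81.9 CPM in lung ∆Foxp3, 16.2 to 171 CPM in lung WT, 48.2 to 331 CPM in spleen ∆Foxp3 and 39.3 to 159 CPM in spleen WT. Of these, 0 passed between genotypes in either organ, beside 20.2% of all genes called in lung and 26.6% in spleen. Between WT organs 3 were lower and 0 higher in lung, where Ccr2 was higher. Between ∆Foxp3 organs 4 were lower and 0 higher in lung. Over all genes 1.03% were called lower in lung between WT organs and 0.173% between ∆Foxp3 organs. The part of the monocyte and macrophage genes in the Ccr2 levels was not tested.

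Genes of group 2 innate lymphoid cells, which share many genes with tissue Treg, summed to 841 to 1151 CPM in lung ∆Foxp3 against 265 to 337 CPM in lung WT, and to 178 to 455 CPM in spleen ∆Foxp3 against 74.0 to 125 CPM in spleen WT. Of the 6 genes, 5 rose in lung ∆Foxp3 and 3 in spleen ∆Foxp3, beside 9.74% and 14.1% of all genes called higher. Il5 and Il13 were at 0 in both WT groups. Between genotypes the list's sum moved with Cxcr6 and Ccr8, although Rora averaged 193 CPM in lung ∆Foxp3 and 190 CPM in lung WT. Between WT organs the sum was higher in lung, whereas Ccr8 averaged 49.8 CPM in lung and 68.7 CPM in spleen. The part of this list in the Cxcr6 and Ccr8 levels was not tested. Erythroid genes summed to 1.19 to 403 CPM in lung ∆Foxp3 and 1974 to 4901 CPM in lung WT, and to 10.8 to 397 CPM in spleen ∆Foxp3 and 9.10 to 16.6 CPM in spleen WT. Dendritic cell genes, H2-Ab1 being the most abundant in 3 of the groups, summed to 35.5 to 52.3 CPM in lung ∆Foxp3 and 10.2 to 260 CPM in lung WT, and to 50.5 to 132 CPM in spleen ∆Foxp3 and 6.79 to 23.4 CPM in spleen WT. The dendritic cell gene Clec9a was at 0 in all 4 groups, and so was the natural killer cell gene Ncr1. The part of the erythroid and dendritic lists in the receptor levels was not tested.

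Cxcr6 and Ccr2 belong to a run of receptor genes on chromosome 9, which also holds Ccr9, Xcr1, Ccr1, Ccr1l1 and Ccr3. In ∆Foxp3 cells Cxcr6 and, further along, Xcr1 rose in both organs, Ccr9 fell in both, and Ccr2 did not pass in either. Xcr1, the receptor for XCL1, was 2.99 ± 0.73 higher on the log2 scale in lung ∆Foxp3 (adjusted p = 0.0104) and 4.68 ± 0.89 higher in spleen ∆Foxp3 (adjusted p = 0.00138). The spleen value was 7.89 without spleen WT 3 and 4.04 without spleen WT 1, and the lung value 3.63 without lung WT 2. Its level was low, 8.71 to 15.1 CPM in lung ∆Foxp3 and 3.72 to 6.74 CPM in spleen ∆Foxp3. Xcr1 is also a gene of the dendritic cell list, of which 4 genes passed the filter on low counts. Of those 4, 1 rose in lung ∆Foxp3 and 3 in spleen ∆Foxp3, beside 9.74% and 14.1% of all genes called higher. The part of dendritic cells in the Xcr1 level was not tested. Ccr9, the gut homing receptor for CCL25, fell by 2.45 ± 0.57 in lung (adjusted p = 0.00956) and by 2.12 ± 0.57 in spleen (adjusted p = 0.015). The lung call for Ccr9 was lost without the 3 libraries that stand apart (-1.92, adjusted p = 0.117).

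**Figure D5:**
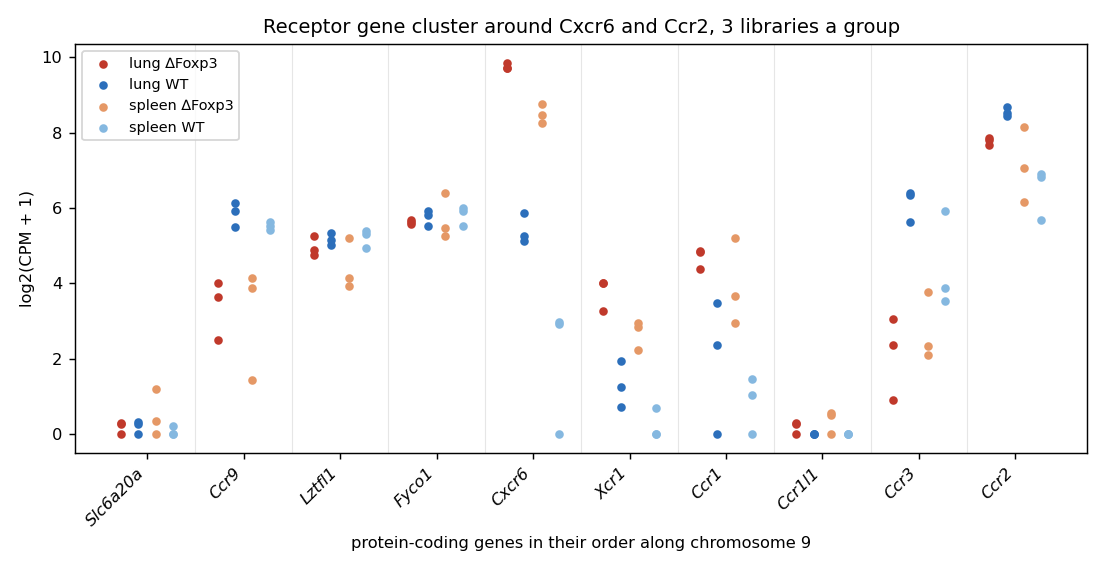
Level of protein-coding genes from Slc6a20a to Ccr2 as log2(CPM + 1) (y axis), in their order along chromosome 9 (x axis, not to scale), with 3 points a group for lung ∆Foxp3, lung WT, spleen ∆Foxp3 and spleen WT. Cxcr6 is high in the ∆Foxp3 groups and Ccr9 and Ccr3 in the WT groups, while Fyco1 and Lztfl1 lie at like levels in all groups.

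Of the 16 other chemokine receptor genes, 8 passed the filter on low counts. In lung ∆Foxp3 1 rose and 3 fell, and in spleen ∆Foxp3 2 rose and 3 fell, beside 20.2% of all genes called in the lungs and 26.6% in the spleen. The median log2 fold change of those 8 was -0.12 in the lungs and -0.20 in the spleen, beside -0.01 and -0.02 over all genes. Cxcr5, the B cell follicle homing receptor, fell by 1.62 ± 0.54 in lung (adjusted p = 0.0488) and by 2.42 ± 0.54 in spleen (adjusted p = 0.00479). The lung call for Cxcr5 was lost without lung ∆Foxp3 1, 2 or 3 (0.101, 0.178 and 0.115), lung WT 1 or 2 (0.127 and 0.178), spleen ∆Foxp3 1 or 2 (0.0553 and 0.0525) or spleen WT 1, 2 or 3 (0.0603, 0.0645 and 0.0658). It was also lost without the 3 libraries that stand apart (0.204), with limma voom (0.0857) and with the replicate block (0.0662). Ccr3, the eotaxin receptor of eosinophils and some type 2 cells, fell by 4.09 ± 0.81 in lung (adjusted p = 0.00419), with -4.72 when lung ∆Foxp3 1 was left out, and had a log2 fold change of -2.09 ± 0.74 in spleen (adjusted p = 0.056). Ccr1, an inflammatory receptor, was 4.16 ± 1.13 higher in spleen ∆Foxp3 (adjusted p = 0.0167). Its call was lost without spleen WT 2 (0.0549), spleen WT 3 (0.0503) or spleen ∆Foxp3 2 (0.0693), without a low-count filter (0.125) and with limma voom (0.0566). Its log2 fold change was 5.13 without spleen WT 1 and 3.20 without spleen ∆Foxp3 2.

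On the side of the ligands, the sorted cells held RNA for few of the 17 chemokines that bind these receptors, and 4 passed the filter on low counts. Ccl1, whose protein binds Ccr8, had 649, 723 and 499 counts in lung ∆Foxp3 libraries against 0 in each lung WT library. In spleen it had 153, 866 and 26 counts in ∆Foxp3 libraries against 0 in each WT library. Taking 3 counts over all 3 WT libraries as the floor, Ccl1 was at least 633-fold higher in lung ∆Foxp3 (adjusted p = 0.0257) and at least 458-fold higher in spleen ∆Foxp3 (adjusted p = 0.0209). The 3 spleen ∆Foxp3 libraries were spread from 3.73 to 208 CPM. The adjusted p of this gene crossed the threshold in 9 alternatives for lung and 7 for spleen, up to 0.197 in lung and 0.183 in spleen. It was lost in lung without lung WT 1, 2 or 3 (0.076, 0.0545 and 0.0624) or lung ∆Foxp3 1, 2 or 3 (0.0694, 0.0778 and 0.0929), and in spleen without spleen WT 1 or 3 (0.0859 and 0.0629) or lung ∆Foxp3 1 or 3 (0.0527 and 0.0594). Without the 3 libraries that stand apart neither call held (0.196 in lung and 0.150 in spleen).

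Cxcl10, an interferon-induced ligand of Cxcr3, was at 12.9, 19.0 and 66.8 CPM in lung ∆Foxp3 against 8.61, 2.85 and 4.22 CPM in lung WT. The log2 fold change was 2.64 ± 0.84 (adjusted p = 0.0434). It was 1.63 without lung ∆Foxp3 3 (adjusted p = 0.203), and the call was also lost without lung WT 1, 2 or 3 (0.0639, 0.144 and 0.124), lung ∆Foxp3 2 (0.0574) or spleen ∆Foxp3 1, 2 or 3 (0.0588, 0.0603 and 0.0598). Neither without a low-count filter (0.240) nor with limma voom (0.0945) did the lung difference pass. In spleen it did not pass (0.48 ± 0.78, adjusted p = 0.694). Cxcl16, the ligand of Cxcr6, averaged 1.44 ± 1.35 CPM in lung ∆Foxp3 and 2.38 ± 1.69 CPM in lung WT (SD, n = 3; adjusted p = 0.732, edgeR over all genes). Ccl27a, a ligand of Ccr10, averaged 1.78 CPM in lung ∆Foxp3 and 2.90 CPM in lung WT (adjusted p = 0.58). The Ccr7 ligands Ccl19 and Ccl21a had 0 counts in all 12 libraries.

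Among 26 genes that carry the signal from receptor to movement, 2 rose and 3 fell in lung ∆Foxp3, and 4 rose and 1 fell in spleen ∆Foxp3. These shares lay close to or below the 20.2% and 26.6% of all genes called in lung and spleen. The list's median log2 fold change was 0.11 in the lungs and 0.09 in the spleen. Pik3cg, the PI3-kinase subunit activated by G protein βγ, was 0.96 ± 0.17 higher in lung (adjusted p = 0.00132) and 1.40 ± 0.17 higher in spleen (adjusted p = 3.8e-05). Plcb2, a phospholipase C, fell by 2.23 ± 0.24 in lung (adjusted p = 3.4e-05) and by 1.57 ± 0.23 in spleen (adjusted p = 0.000191). Gng2, a G protein γ subunit, was 0.90 ± 0.24 higher in lung (adjusted p = 0.0163) and 1.81 ± 0.24 higher in spleen (adjusted p = 9.7e-05). The lung call for Gng2 was lost without lung WT 1 or 2 (0.058 and 0.0625) or lung ∆Foxp3 3 (0.0689). Leaving out the 3 libraries that stand apart gave 0.71 (adjusted p = 0.0713). Prex1, an activator of Rac proteins, was 1.12 ± 0.16 higher in spleen (adjusted p = 0.000149). Rac1, a GTPase of cell movement, fell by 1.00 ± 0.31 in lung (adjusted p = 0.0347). The Rac1 call was lost without lung ∆Foxp3 2 or 3 (0.162 and 0.109), lung WT 2 or 3 (0.0903 and 0.225) or spleen ∆Foxp3 1 (0.0513), and its log2 fold change was -0.55 without lung WT 3. The call was also lost with limma voom (0.0587) and when the fit held lung libraries alone (0.0909).

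Of 14 genes of receptor desensitization, 12 were tested, of which 2 rose and 3 fell in lung ∆Foxp3 and 0 rose and 2 fell in spleen ∆Foxp3. Over all genes 20.2% were called in lung and 26.6% in spleen, so the spleen count lies below that share. The list's median log2 fold change was -0.20 in the lungs and -0.02 in the spleen. Rgs14, a regulator that shortens G protein signals, fell by 1.34 ± 0.16 in lung (adjusted p = 6.8e-05) and by 1.09 ± 0.16 in spleen (adjusted p = 0.000175). In the lungs Rgs1 and Rgs16, which act in the same way, were 1.64 ± 0.27 (adjusted p = 0.000896) and 3.27 ± 0.61 higher (adjusted p = 0.00314), the Rgs16 value being 3.90 without the 3 libraries that stand apart. Arrb1, an arrestin, fell by 1.50 ± 0.31 in lung (adjusted p = 0.00334). In spleen Rgs10 fell by 1.93 ± 0.26 (adjusted p = 0.000106).

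Other trafficking molecules moved in both directions as well. Of 18 genes, 5 rose and 6 fell in lung ∆Foxp3 and 3 rose and 4 fell in spleen ∆Foxp3, with medians of -0.45 and -0.16, beside the same 20.2% and 26.6% of all genes called. Ltb4r1, a receptor for the lipid leukotriene B4, averaged 309 CPM in lung ∆Foxp3 against 36.5 CPM in lung WT (3.08 ± 0.49, adjusted p = 0.00118). In spleen it averaged 338 CPM in ∆Foxp3 against 5.42 CPM in WT (5.96 ± 0.58, adjusted p = 2.1e-05), or 5.20 without spleen ∆Foxp3 3. S1pr1, the receptor for exit from lymphoid organs, fell by 1.78 ± 0.21 in lung (adjusted p = 5.6e-05) and by 1.17 ± 0.20 in spleen (adjusted p = 0.00071). Cd44, a marker of activated T cells, was 1.10 ± 0.16 higher in lung (adjusted p = 0.000402). In spleen the integrin genes Itgb1 and Itgal were 2.84 ± 0.41 (adjusted p = 0.000335) and 0.95 ± 0.15 higher (adjusted p = 0.000434).

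Of 18 transcription factor genes linked to receptor expression in T cells, 5 rose and 7 fell in lung ∆Foxp3 and 6 rose and 5 fell in spleen ∆Foxp3, beside 20.2% and 26.6% of all genes called. The list's median log2 fold change was -0.09 in lung and 0.12 in spleen. Foxo1, a forkhead factor that drives Ccr7 in resting T cells, fell by 2.36 ± 0.19 in lung (adjusted p = 3.8e-06) and by 2.14 ± 0.19 in spleen (adjusted p = 4.6e-06). Id3, an inhibitor of E proteins, fell by 1.72 ± 0.17 in lung (adjusted p = 2e-05) and by 2.76 ± 0.17 in spleen (adjusted p = 3.7e-07). Id2, its relative found in effector cells, was 2.86 ± 0.35 higher in lung (adjusted p = 0.000145) and 3.83 ± 0.36 higher in spleen (adjusted p = 1.2e-05), where it was 4.49 without spleen WT 1. Bach2, a repressor that keeps T cells resting, fell by 2.26 ± 0.31 in lung (adjusted p = 0.000239), and Maf was 1.79 ± 0.19 higher in spleen (adjusted p = 1.3e-05).

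The genes most like each receptor across the 12 libraries were found by the root mean square difference of log2(CPM + 1), each gene centred on its mean, among 8502 genes at a mean of 10 CPM or more. This is a description over libraries that share their genotype and organ groups. Cxcr6 was followed most closely by Ctla2a at 0.68, then by the cell cycle inhibitor gene Cdkn1a and by Ltb4r1 at 1.10 each, beside a spread of 3.10 for Cxcr6 itself. Ccr8 was followed by the prostacyclin receptor gene Ptgir at 0.38 and by Litaf and Ccdc50 at 0.44 each, beside its own spread of 1.00. Ccr7 was followed by Actn1 at 0.37 and by Lrig1 and Ecm1 at 0.39 each, beside its own 1.12. For Ccr4 the nearest genes were Ube4b at 0.29, Ldlrad4 at 0.36 and Prkcd at 0.37, beside its own 0.87.

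Ccr6 and Ccr10 shared neighbours, with Ccr3 nearest to each at 0.62 for Ccr6 and 0.86 for Ccr10. Rsad2 was among the nearest to both as well, with Igf1r for Ccr6 and Grb7 for Ccr10. The spreads of Ccr6 and Ccr10 were 1.89 and 2.02. Ccr2 was followed by S100a4 at 0.44, Rora at 0.46 and S100a6 at 0.51, beside its own 0.92. For Cxcr3 the nearest were Ubac1, Ncapd3 and Prune1 at 0.34 to 0.37 beside its own 0.61, and for Cxcr4 they were Uhrf2, Vgll4 and Pja1 at 0.21 to 0.28 beside its own 0.53.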

How the data were processed

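RNA was measured in 12 libraries of sorted Treg by Smart-seq2 with 38-nt paired reads and 18 PCR cycles, per the labels' protocols. The authors deposited whole-number counts per gene symbol, and the submitters' processing notes name STAR 2.7.3a, featureCounts, Subread 2.0.0 and mm10. The sources used here do not name the annotation or say whether strand was used. From the counts, edgeR 4.0.16 in R 4.3.3 kept 13295 of 55011 genes (filterByExpr), set TMM factors and fitted a robust quasi-likelihood model with 1 term per group over all 12 libraries, with Benjamini-Hochberg adjustment over all genes. CPM values use the TMM-scaled library sizes. DESeq2 1.42.0 and limma 3.58.1 (voom) were alternatives, beside other scaling, other filters, fits of the compared groups only, a replicate block and leaving out libraries. On simulated data made for lung ∆Foxp3 against WT over 12807 genes, 79% of 100 genes changed 4-fold and 10% of 100 genes changed 2-fold were recovered. There were 5 false calls. The simulation gave all genes the same spread between libraries and changed far fewer genes than were called here. Its shares are therefore not recovery rates for these data. Counting intervals and floors of 3 counts cover counting error only. GENCODE M21 gave lengths and positions and RefSeq the promoters. The genes named from each list were the called members with the lowest adjusted p, at most 4 a list and organ. A gene named for a single organ may thus have been called in the other too, and no organ difference is meant. The receptors and lists were chosen with earlier results of these data known. Some genes of the lists are not reported here.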

Additional observations from a re-analysis of the deposited data

Results flagged for a closer look

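Ccr8 differed between organs in its response to ∆Foxp3. The interaction term, the lung effect minus the spleen effect, was 1.71 on the log2 scale (adjusted p = 0.0486, edgeR over all genes). Ccr8 was higher in all 3 ∆Foxp3 libraries than in all 3 WT libraries of each organ, and the groups did not overlap for 45.3% of all genes in lung and 38.2% in spleen. The call was kept in 7 of 20 alternatives, and the ∆Foxp3 alleles labelled in lung and spleen differ, so organ and allele cannot be told apart.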

How the results depend on the processing

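Between ∆Foxp3 organs, 1 member passed, against 0 with RLE factors, with library totals or with the replicate block, and 2 without a low-count filter, with only these groups in the fit or without the 3 libraries that stand apart. In the interaction 1 member passed, against 0 with RLE factors, limma voom or the replicate block. Leaving out 1 library at a time, the members passing ranged from 3 to 7 in spleen, 6 to 6 in lung, 2 to 3 between WT organs, 0 to 2 between ∆Foxp3 organs and 0 to 1 in the interaction.

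Over all genes, 2287 passed in spleen with only those groups in the fit (3540 as reported) and 1321 in lung without the 3 libraries that stand apart (2686 as reported). Between WT organs 957 passed without a filter and 1046 with DESeq2 (549 as reported). Between ∆Foxp3 organs 292 passed without a filter, 235 with DESeq2 and 52 with voom (96 as reported). In the interaction 363, 304, 26 and 74 passed without a filter, with DESeq2, with voom and with the replicate block (123 as reported). With 1 library left out these counts ranged from 2710 to 3575 in spleen, 1457 to 3364 in lung, 281 to 693 between WT organs, 42 to 152 between ∆Foxp3 organs and 36 to 178 in the interaction. The causes were not tested.

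Signs turned only in member differences that did not pass. Between ∆Foxp3 organs Cxcr3 was at 0.046 with voom. In the interaction Ccr10 was at -1.49 with voom, -0.23 with the replicate block and -0.070 without the 3 libraries that stand apart. Leaving out those 3, Cxcr4 was at -0.23 and Ccr7 at 0.093. In lung Cxcr3 was at -0.092 without those 3. With 1 library left out, Cxcr3 ranged from -0.11 to 0.46 in lung and from -0.26 to 0.48 between ∆Foxp3 organs. Cxcr4 ranged from -0.0045 to 0.80 between WT organs and from -0.33 to 0.45 in the interaction. Ccr7 ranged from -0.17 to 0.67 between ∆Foxp3 organs. Ccr10 ranged from -1.94 to 4.06 between ∆Foxp3 organs and from -3.64 to 2.37 in the interaction. Whether same-numbered replicates were paired could not be told from the correlations of their deviations from the group means. Over 18 same-numbered pairs these ran from -0.092 to 0.0955, with a median of -0.0072. The median was -0.0023 for pairs with different numbers, and 6 of 12 libraries correlated best with their own number.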
